A study of Mus musculus with 8 samples.

Results

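A set of 6 genes around the nascent polypeptide-associated complex and the folding of myosin were followed in skeletal muscle RNA: Naca, Btf3, Btf3l4, Smyd1, Smyd2 and Unc45b. They are 6 of the 55487 gene identifiers in the deposited table, and each had at least 739 reads in every library. The set was chosen by name, and Naca entered it because it was among the abundant genes that changed in a contrast involving these mice, so its level is given here as a description.

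The data are RNA-seq libraries of hindlimb muscle from 8 male C57BL/6J mice aged 10 weeks. All 8 had hindlimb cast immobilization for 8 days and received K14Q MOTS-c at 15 mg/kg per day, divided over 2 intraperitoneal injections. MOTS-c is a small peptide encoded in mitochondrial DNA, and K14Q is a variant of it with glutamine in place of a lysine. The sample labels name vastus lateralis, whereas the study's methods name gastrocnemius, and which muscle was taken cannot be told from the files. Mice without the cast or with another injection were not analysed here, so every comparison below is between genes or between mice under 1 condition, and none is a test of immobilization or of the peptide.

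The nascent polypeptide-associated complex is a dimer of an alpha subunit, made by Naca, and a beta subunit, made by Btf3 or its paralog Btf3l4, that sits at the ribosome's exit and shields new chains. In striated muscle Naca also gives a much longer protein, skNAC, through an extra exon, and skNAC binds Smyd1, a SET and MYND domain methyltransferase needed for sarcomere formation in heart and fast muscle. Smyd2 is a related methyltransferase, and Unc45b is a chaperone that works with Hsp90 to fold the myosin motor domain.

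The libraries held 23985356 to 33012497 recovered reads, and the 10 most abundant genes took 18.8% to 26.2% of them. All 6 skeletal muscle fibre markers checked passed 10 reads in every library, with summed normalized counts of 744703.0 to 1285720.0. Markers of blood, fibroblasts, endothelium, macrophages, Schwann cells and slow fibres were all present too, and 4 of 5 adipocyte and 3 of 5 satellite cell markers passed 10 reads in every library. In bulk tissue, fewer cells of a type and less RNA per cell cannot be told apart.

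Naca (ENSMUSG00000061315) lies on the plus strand of chromosome 10, 128035575 to 128048637 in GRCm38. The annotation used here, GENCODE M21, gives it a protein-coding transcript of 885 bases and 8 exons, Naca-201, and another of 6745 bases and 9 exons, Naca-202. They differ by exon 3 of Naca-202, which spans 128039171 to 128045086 and holds 5916 bases of coding sequence, and this is the exon that makes skNAC. The 24 bases on each side of the junctions are shown because a read across them would tell the forms apart, with the bases of the muscle exon in capitals.

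Naca-201 exon 2 to exon 3: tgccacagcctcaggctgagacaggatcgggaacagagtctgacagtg
Naca-202 exon 2 to exon 3: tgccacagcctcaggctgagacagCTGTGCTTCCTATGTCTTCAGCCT
Naca-202 exon 3 to exon 4: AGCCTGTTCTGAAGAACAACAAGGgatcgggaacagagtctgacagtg

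The table counts reads per gene, so reads of the general form and of skNAC were summed and cannot be told apart in any value of Naca below.

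Naca was at 31336 ± 4585 normalized counts (SD, n = 8). The lowest mouse had 25556 (mouse 8), the median was 30732 and the highest had 41554 (mouse 5). The other 7 mice lay between 25556 and 31761, so mouse 5 stood apart with the size factors. With library totals the second highest mouse was at 35568 and the gap no longer passed the limit for an outlying value. Without mouse 5 the mean was 29877. The coefficient of variation (CV, the SD as a share of the mean) was 14.6%, against 0.577% from read counting alone. Mouse 5 also led in the summed blood markers, with 28319.6 normalized counts where the other 7 mice had 7059.6 to 24712.5. Over the 8 mice Naca and the summed blood markers had r = 0.70 and Spearman's rho = 0.41 (exact permutation p = 0.0412 and 0.327, adjusted p = 0.247 and 0.654 over 72 relations), and r was 0.56 when the 2 mice farthest from the median were left out. Mouse 5 also had the largest library, and Naca and library depth had r = 0.51 and rho = 0.19 (exact permutation p = 0.195 and 0.665, adjusted p = 0.527 and 0.886). Without the 2 farthest mice that r was 0.80. With the fibroblast markers Naca had r = 0.37 and rho = 0.74 (exact permutation p = 0.366 and 0.0458, adjusted p = 0.675 and 0.33). The part of blood, of depth and of other cell types in the Naca level was not tested.

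**Figure D1:**
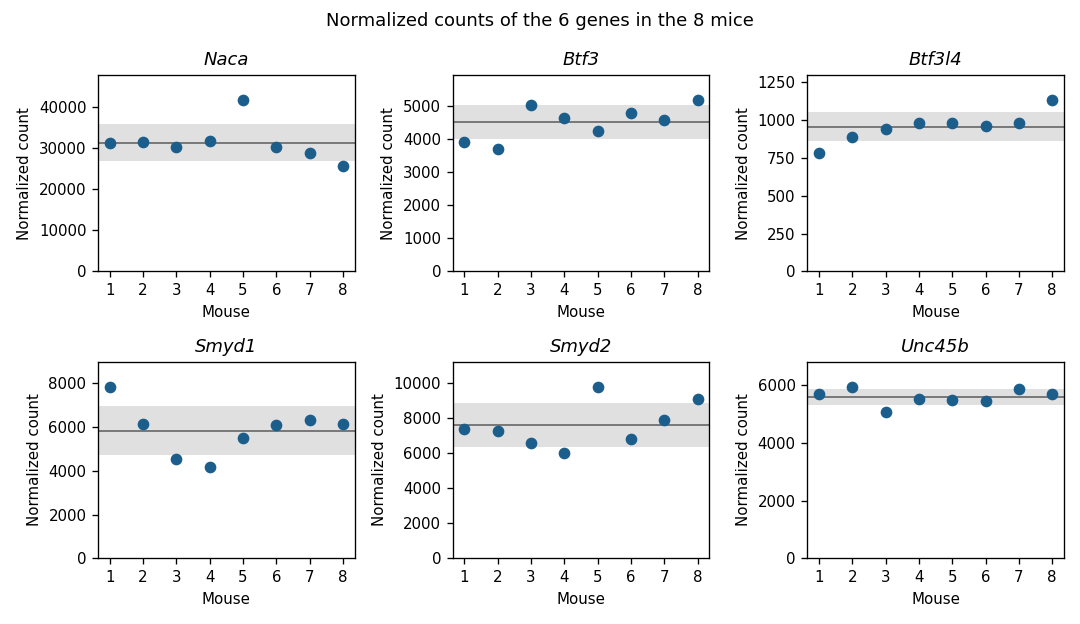
Normalized counts (y axis, from 0) of the 6 genes in each of the 8 mice (x axis), with the mean as a line and 1 SD as a grey band. Mouse 5 is the highest for Naca at 41554, and Unc45b varies least, from 5067 to 5926.

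Of the beta subunits, Btf3 (ENSMUSG00000021660, chromosome 13, 98309896 to 98317006, minus strand) was at 4515 ± 522 normalized counts (SD, n = 8). Its lowest value was 3693 (mouse 2), its median 4615 and its highest 5172 (mouse 8). Btf3l4 (ENSMUSG00000028568, chromosome 4, 108814295 to 108833614, minus strand) was at 957.5 ± 97.3, from 784.6 (mouse 1) through a median of 973.0 to 1129.7 (mouse 8). With the size factors both beta subunit genes had their highest value in the mouse with the lowest Naca, whereas with library totals Btf3 was highest in mouse 3. Their CVs were 11.6% and 10.2%, and the median was 12.1% over the 2754 genes with at least 1000 reads in every library, a set that does not hold Btf3l4. With library totals the CV of Btf3 was 18.4%, the highest of the 6, and that of Btf3l4 was 14.7%, where the median was 14.5%.

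Of the methyltransferases, Smyd2 (ENSMUSG00000026603, chromosome 1, 189880492 to 189922363, minus strand) was at 7611 ± 1277 normalized counts (SD, n = 8), from 6032 (mouse 4) through a median of 7325 to 9778 (mouse 5). Smyd1 (ENSMUSG00000055027, chromosome 6, 71213940 to 71322233, minus strand) was at 5836 ± 1130, from 4184 (mouse 4) through a median of 6101 to 7818 (mouse 1). With the size factors Smyd1 was the most variable of the 6, with a highest value 1.87 times the lowest, and mice 3 and 4 were below the rest. Its CV was 19.4% with the size factors but 12.7% with library totals, when only Unc45b had a lower one among the 6.

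Unc45b (ENSMUSG00000018845, chromosome 11, 82910550 to 82943403, plus strand) was at 5583 ± 273 normalized counts (SD, n = 8), from 5067 (mouse 3) through a median of 5594 to 5926 (mouse 2). Its CV of 4.89% made it the steadiest of the 6, and 2.18% of the genes with at least 1000 reads in every library had a lower one. With library totals the CV of this myosin chaperone was 5.64%, again the lowest of the 6. Per length, in TPM, it ran from 68.3 to 92.0 and Smyd1 from 69.0 to 96.0, so on that scale their ranges were of like width.

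Levels were compared between genes only per length, as TPM (transcript numbers relative to the library's total) over the length of all annotated exons of a gene. Naca was at 285 ± 59.7 TPM (SD, n = 8), rank 231 of all genes, Smyd2 at 171 ± 25.3, Btf3 at 161 ± 33.7, Smyd1 at 77.8 ± 8.70, Unc45b at 76.4 ± 7.51 and Btf3l4 at 13.0 ± 2.23. Naca exceeded Smyd2 in 8 of 8 mice, although the ranges over mice met, at 215 for the lowest Naca and 223 for the highest Smyd2. Smyd2 and Btf3 did not differ beyond their spread, with Smyd2 higher in 5 of 8 mice, and the same held for Smyd1 and Unc45b. Btf3 was above Smyd1, and Unc45b above Btf3l4, with no overlap between mice.

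The length used moved these levels more than the mice did. If every Naca read came from the 885-base form, with the shortest coding transcript taken for all other genes as well, Naca was at 1130 TPM (rank 84), and with the longest transcript of each gene it was at 261 (rank 281). Genes with no coding transcript have no coding length. They are outside the TPM total and the ranks in the shortest and median coding settings, which adds to the moves. Smyd1 has an annotated coding transcript of 376 bases, and with the shortest coding transcripts Smyd1 was at 491 TPM and passed both Btf3 and Smyd2. By the means, Naca stayed first among the 6 and Btf3l4 last under all 4 lengths. Single mice differed, since Naca exceeded Smyd2 in 6 of 8 mice with the longest transcripts and Unc45b exceeded Btf3l4 in 3 of 8 with the shortest coding ones.

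**Figure D2:**
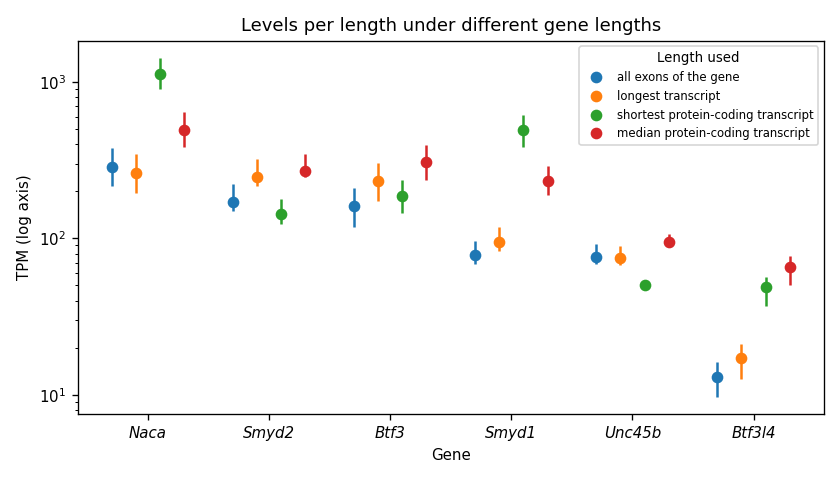
Levels of the 6 genes in TPM (log y axis) with 4 definitions of gene length. Points are means over 8 mice and lines run from the lowest to the highest mouse; Naca moves between 261 and 1130 TPM with the length used, and Smyd1 between 77.8 and 491.

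Ratios within a library do not depend on the scaling between libraries. The alpha subunit exceeded the summed beta subunits by 0.71 ± 0.31 on the log2 scale (SD, n = 8), from 0.22 in mouse 8 to 1.20 in mouse 5. With the longest transcripts as lengths the same log2 ratio was 0.06 ± 0.31, from -0.43 to 0.55. The size of the difference thus depends on the lengths used, and so does its direction in single mice. The mean over mice was above 0 under all 4 lengths. Btf3 exceeded its paralog Btf3l4 by 3.62 ± 0.12 on the log2 scale, from 3.44 to 3.81 in the 8 mice, and this was the tightest of the 4 ratios. It was 1.91 with the shortest and 2.22 with the median coding transcripts. The log2 ratio of Smyd1 to Smyd2 was -1.13 ± 0.29, from -1.58 in mouse 5 to -0.66 in mouse 1, and with the shortest coding transcripts it turned to 1.77 ± 0.29. With the median coding transcripts it was -0.23 and lay on both sides of 0, from -0.67 to 0.24. The log2 ratio of Unc45b to Smyd1 was -0.02 ± 0.25 and lay on both sides of 0, from -0.44 in mouse 1 to 0.41 in mouse 4. With the median and shortest coding transcripts it was -1.28 and -3.28, and below 0 in every mouse.

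The members Naca, Btf3 and Btf3l4 have near-identical genes elsewhere in the genome, and how the authors treated reads that match several places is not given in the sources used here. Among the most abundant genes, mt-Atp6 and Gm10925 had nearly the same mean, 651153.5 and 651138.7 normalized counts. Both had r = 0.89 with Smyd1 and -0.14 with Naca. Whether the same reads were counted at more than 1 gene was not tested. Gm6863, a processed pseudogene of Naca on chromosome 12, matches the coding sequence of Naca-201 over 625 bases with 1 mismatch. The 41 bases around that mismatch are shown because it is the only base in the match that separates them. It is G558A, counted from the A of the start codon of Naca-201, with Naca's base first and the base in capitals.

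Naca-201: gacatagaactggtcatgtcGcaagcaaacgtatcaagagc
Gm6863: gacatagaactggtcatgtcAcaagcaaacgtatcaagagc

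Gm6863 took 3.07% to 6.35% of the reads assigned to the pair, with its highest level in mouse 8. Its log2 level did not run with that of Naca (r = -0.21 over 8 mice). Adding its reads and those of Gm12482, another Naca pseudogene, gave Naca 32522 ± 4548 normalized counts (SD, n = 8), within 1 SD of the value without them, and mouse 5 stayed the highest.

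The beta subunit genes were touched more. Gm3531, a processed pseudogene of Btf3 on chromosome 1, matches it over 489 bases with 4 mismatches, and took 18.2% to 20.8% of the reads of the pair. Of these mismatches the first, A138G in the coding sequence of Btf3, is shown in capitals in the 32 bases around it.

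Btf3: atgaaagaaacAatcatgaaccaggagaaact
Gm3531: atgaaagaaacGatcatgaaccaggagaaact

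Gm20075, a gene on chromosome 13 annotated as protein-coding, matches Btf3l4 over 2110 bases with 5 mismatches and 1 gap, none of them among the 474 coding bases, and took 41.5% to 43.5% of the reads of the pair. Both ran closely with their partners between mice, with r = 0.96 for Gm3531 and Btf3 and r = 0.97 for Gm20075 and Btf3l4 over the log2 levels of 8 mice. With these reads added, Btf3 was at 5616 ± 692 and Btf3l4 at 1677 ± 177 normalized counts (SD, n = 8), and the log2 ratio of Btf3 to Btf3l4 was 3.13 ± 0.12. The levels of both beta subunit genes are therefore uncertain by the reads of these copies. A read counted at both a member and its copy would enter these sums, and that of Naca, more than once. Such reads would also raise r between a copy and its member, and their number was not tested. Genes on the opposite strand overlap exons of Btf3 (Gm9828), Smyd2 (Gm37422) and Unc45b (Unc45bos and Slfn5os). Whether the counting used strand is not given in the sources used here. None of the 4 had over 45 reads in any library. These counts would not show reads left out of the members because they match genes on both strands.

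Whether the partners rose and fell together between mice was tested for all 15 pairs on log2(normalized count + 1), with a two-sided exact permutation test. No pair passed a Benjamini-Hochberg adjusted p of 0.05, and 1 had an unadjusted p below it. That pair was the paralogs Btf3 and Btf3l4 (r = 0.74, exact permutation p = 0.0301, adjusted p = 0.451). Spearman's rho was 0.57 for that pair (exact permutation p = 0.151, adjusted p = 0.608), and r fell to 0.42 without the 2 mice farthest from the median of Btf3. Naca and its beta subunit Btf3 had r = -0.45 and rho = -0.62 (exact permutation p = 0.277 and 0.115, adjusted p = 0.662 and 0.608), and r = -0.42 without the 2 farthest mice. The skNAC partners Naca and Smyd1 had r = -0.18 and rho = -0.33 (exact permutation p = 0.655 and 0.428, adjusted p = 0.756 and 0.693), and r = -0.21 without the 2 farthest mice. Smyd1 and Unc45b had r = 0.61 and rho = 0.67 (exact permutation p = 0.11 and 0.0831, adjusted p = 0.662 and 0.608), and r = 0.27 without the 2 farthest mice.

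These correlations depend on how libraries are scaled. The normalized counts rest on size factors, and dividing by library totals instead moved the median of all tested genes by up to 0.34 (log2) between mice. With library totals Btf3 and Btf3l4 passed (r = 0.90, exact permutation test over 8 mice, adjusted p = 0.0327), whereas Smyd1 and Unc45b turned to r = -0.78 and Naca and Btf3 to r = 0.24. In that setting 2786 of all genes had r of at least 0.8 with Btf3 and 2145 with Btf3l4, against 758 and 398 with the size factors. The pair of Naca and Smyd2 rested on single mice, with r = 0.23 over 8 mice, -0.85 without mouse 5 (exact permutation test, adjusted p = 0.196) and 0.70 without mouse 8.

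**Figure D3:**
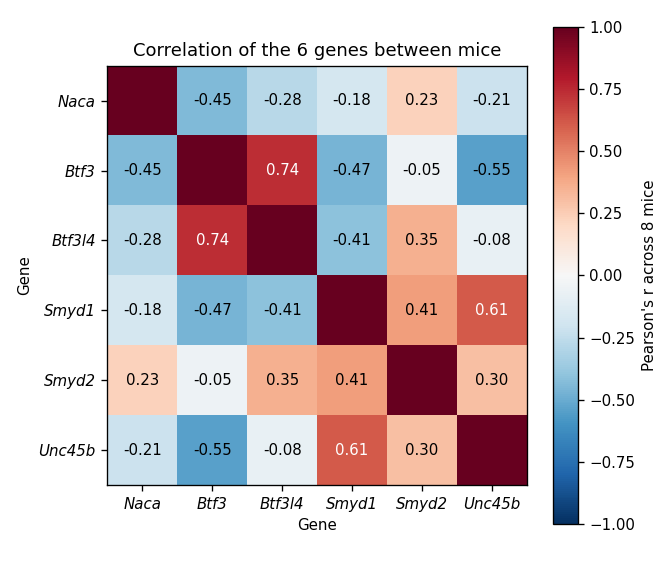
Pearson's r between the 6 genes (rows and columns) over the log2 levels of 8 mice, from -1 in blue to 1 in red. The highest is 0.74, for Btf3 and Btf3l4, and no pair passed the adjusted threshold.

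Genes whose proteins work beside the members were then compared with them by r over the 8 mice, as a description without a test. Of 35 such genes 34 had at least 10 reads in every library, and Nacad, a Naca-like gene, had 2 to 12 reads. The list with the largest share past 0.8 was, for Smyd1, the genes of the thick filament, the myosin part of the sarcomere. Of the 9 thick filament genes 5 had r of at least 0.8 with Smyd1, against 3.26% of all 15134 other genes, and the median r over the 9 was 0.84 against -0.04 over all genes. At or below -0.8 there were 0 of the 9, against 3.01% of all genes. They were Mybpc2 (fast myosin-binding protein C, r = 0.94), Myh4 (the fastest myosin heavy chain, 0.94), Myh2 (0.89), Myh1 (0.89) and Myom1 (an M-band protein, 0.84).

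Myh4 was at 1461400 ± 421858 normalized counts (SD, n = 8), from 839797 through a median of 1495611 to 2063673, and Mybpc2 at 90293 ± 28994, from 54105 through 89895 to 133506. Mouse 1 was the highest for Smyd1 and for all 5 of these genes, and mice 3 and 4 were the lowest for Smyd1. The other 4 had lower values, with r = 0.73 for Myh7 (slow myosin), 0.49 for Ttn (titin), 0.28 for Mybpc1 and 0.12 for Myom2.

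**Figure D4:**
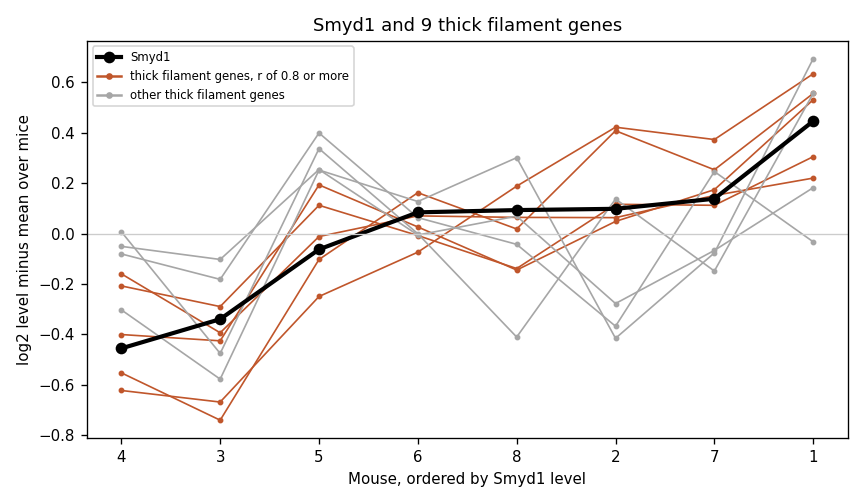
Level of Smyd1 (black) and 9 thick filament genes in each mouse, as log2 level minus the mean over mice (y axis), with mice ordered by their Smyd1 level (x axis). The 5 genes in orange, with r of at least 0.8, are low in mice 4 and 3 and highest in mouse 1.

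The same mice differed in library make-up. Smyd1 ran with the share of reads in the 10 most abundant genes (Pearson's r = 0.93, exact permutation p = 0.000471, adjusted p = 0.0339), with rho = 0.93 (exact permutation p = 0.00223, adjusted p = 0.0804). Leaving out the 2 farthest mice gave r = 0.88. This was the 1 relation of 72, between the 6 genes and 12 measures of the libraries and of marker lists, that passed on Pearson's r. No relation passed with library totals, with Spearman's rho or without any 1 mouse other than mouse 3. Myh4 is itself the first of those 10 genes. Among the others Atp2a1 (the calcium pump of fast fibres) had r = 0.95 with Smyd1, and the mitochondrial transcripts mt-Co1, mt-Atp6, mt-Nd4 and mt-Cytb had 0.89, 0.89, 0.85 and 0.84, near the values of Myh1, Myh2 and Myom1. Gm10925 (0.89), with nearly the mean of mt-Atp6, and Gm29216 (0.84) were also among the 10. Whether the share and the library totals hold the same reads more than once was not tested. For Ttn (0.49) and Neb (nebulin, 0.23) r with Smyd1 was lower. A high r with Smyd1 was thus also found outside the thick filament, and the share and the thick filament genes are not separate evidence. Mice 3 and 4 had the lowest shares, 18.8% and 19.6%. With library totals Mybpc2 and Myh4 went from r = 0.94 to 0.84 with Smyd1, Myh2 to 0.75, Myh1 to 0.61 and Myom1 to 0.48. In that setting 2 of the 9 genes had r of at least 0.8, against 0.535% of all genes. The summed fibre markers ran with Smyd1 too (r = 0.80, rho = 0.79, exact permutation p = 0.017 and 0.0279, adjusted p = 0.175 and 0.33), with r = 0.32 without the 2 farthest mice. The slow fibre markers, among them Myh7 of the thick filament list, had r = 0.74 and rho = 0.48 with Smyd1 (exact permutation p = 0.0359 and 0.243, adjusted p = 0.237 and 0.625), and r = 0.40 without the 2 farthest mice. What part the make-up of the libraries and the fibres has in the relation was not tested.

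For Unc45b, 2 of the 9 thick filament genes had r of at least 0.8, Mybpc2 (0.82) and Myh1 (0.82), against 1.62% of all genes. With library totals these turned to -0.72 and -0.41, so no direction is given for Unc45b and the myosin genes. With the share of the 10 most abundant genes Unc45b had r = 0.82 and rho = 0.67 (exact permutation p = 0.00918 and 0.0831, adjusted p = 0.136 and 0.346). Without the 2 farthest mice r was 0.80. With the summed fibre markers Unc45b had r = 0.82 and rho = 0.76 (exact permutation p = 0.0112 and 0.0368, adjusted p = 0.136 and 0.33), and r = 0.70 without the 2 farthest mice. The relation with the fibre markers passed once the GC and length trend was removed (adjusted p = 0.0375, exact permutation test). Its log2 level moved little between mice, and a change of scaling by up to 0.34 (log2) is larger than its own range. Naa15, a subunit of the amino-terminal acetyltransferase at the ribosome, had r = 0.88 with Unc45b and 0.91 with library totals, but 1520 of all genes then had r of at least 0.8, against 245.

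**Figure D5:**
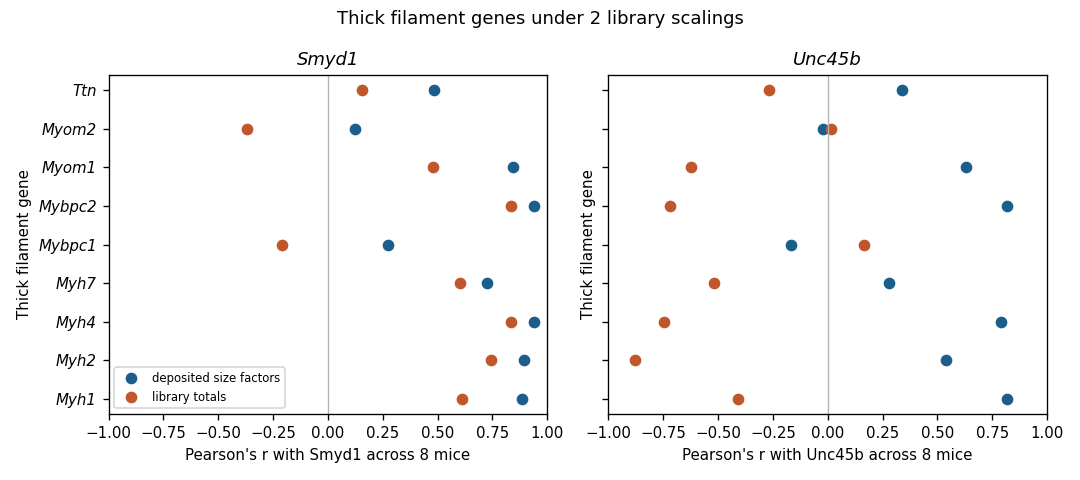
Pearson's r over 8 mice (x axis) of 9 thick filament genes (y axis) with Smyd1, left, and Unc45b, right, with the deposited size factors in blue and library totals in orange. For Smyd1, Myh4 and Mybpc2 go from 0.94 to 0.84, whereas for Unc45b Mybpc2 goes from 0.82 to -0.72.

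For Naca, 0 of the 34 genes had r of at least 0.8 or at most -0.8, against 3.15% and 2.54% of all genes. The nearest were Smyd4 (another SMYD family gene, r = 0.76), Stub1 (a chaperone-linked ubiquitin ligase, -0.74) and Naa10 (the catalytic partner of Naa15, -0.73). Without mouse 5, 2 genes of the signal recognition particle, which hands secretory chains from the ribosome to the membrane, lay below -0.8: Srp19 (-0.85) and Srp14 (-0.82). In that setting 753 of all genes did so, against 384 over 8 mice. Over all 8 mice they were at -0.35 and -0.64, and with library totals at 0.13 and 0.014, so no direction is given for them. With library totals Smyd4 (0.89) and Srp68 (0.80), a subunit of that particle, were at or above 0.8, as were 1124 of all genes.

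Of the 12 measured genes for the handling of nascent chains, 1 had r of at least 0.8 with Btf3 and 2 with Btf3l4, and these are genes of that particle. Btf3 had r = 0.87 with Srp14, and Btf3l4 had r = 0.92 with Srp19 and 0.81 with Srp14, against 5.01% of all genes at or above 0.8 for Btf3 and 2.63% for Btf3l4. No partner gene was at or below -0.8 with Btf3l4, as 2.66% of all genes were. The other genes of the particle ran from -0.58 (Srp72) to 0.74 (Srp19) with Btf3 and from -0.48 (Srp72) to 0.76 (Srp9) with Btf3l4. With library totals the 3 values past 0.8 were 0.95, 0.95 and 0.91, but 2786 of all genes then passed 0.8 with Btf3 and 2145 with Btf3l4, against 758 and 398. Btf3 also had r = 0.81 with Ahsa1 (an activator of the Hsp90 ATPase) and -0.81 with Ttn, while 3.50% of all genes were at or below -0.8. With library totals Ttn was at -0.53. Btf3 moved with a library measure as well, the slope of the log2 level on GC content (r = 0.89, exact permutation p = 0.00188, adjusted p = 0.0679; rho = 0.83, p = 0.0154, adjusted p = 0.277), and r was 0.59 without the 2 farthest mice. By the same exact permutation test this relation passed with TMM factors (adjusted p = 0.0402) and with the GC and length trend removed (adjusted p = 0.0304). Relations of the beta subunit genes with markers of other cell types did not pass over 8 mice. They were near 0 for the blood, Schwann cell and slow fibre lists, with r from -0.20 to -0.02, and lower for others. Btf3 had r = -0.85 with the summed fibroblast markers and -0.79 with those of endothelium (exact permutation p = 0.00804 and 0.0214, adjusted p = 0.136 and 0.193; rho = -0.69 and -0.74, adjusted p = 0.346 and 0.33), and r = -0.42 and -0.50 without the 2 farthest mice. Btf3l4 had r = -0.78 with the adipocyte markers and rho = -0.95 (exact permutation p = 0.0113 and 0.00114, adjusted p = 0.136 and 0.0804), and r = -0.64 without the 2 farthest mice. Without mouse 3, Btf3 passed with adipocyte (r = -0.97) and endothelium markers (-0.98), both at an adjusted p of 0.0286 in the exact permutation test. The part of GC content and of these cell types in the values of Btf3 and Btf3l4 was not tested. For Smyd2, 0 of the 34 genes had r of at least 0.8, against 1.14% of all genes. The related Smyd5 was at r = -0.85, while 1.55% of all genes were at or below -0.8, and with library totals it was at -0.44. These shares of all genes rest on mouse 5, since without it 800 genes were at or above 0.8 with Smyd2 and 854 at or below -0.8, against 173 and 234. For Unc45b none of the 34 was at or below -0.8, as 1.47% of all genes were.

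Over all 15134 genes, those whose log2 levels were most like Naca's over the 8 mice were Brpf3 (r = 0.99), S100a4 (0.97), 3425401B19Rik (0.97), Arid1b (0.97) and Ikzf5 (0.97). All 5 were highest in mouse 5, and without that mouse r was still 0.99, 0.95, 0.92, 0.99 and 0.90. Brpf3, a bromodomain protein, went from 569.2 to 962.0 normalized counts, and 3425401B19Rik from 8529 to 28940. The most opposite were H2-Ke6 (-0.98), Wdr66 (-0.98) and Mtch1 (-0.97).

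The genes most like Btf3 were Prdx3 (a mitochondrial peroxidase, r = 0.98), Nop10 (a small nucleolar RNP protein, 0.98) and the pseudogene Gm18913 (0.98). Among those most like Btf3l4 were Psmb1 (a proteasome subunit, 0.98) and 5430405H02Rik (0.98). For Smyd1 they were Kctd15 (0.97), the pseudogene Ybx1-ps2 (0.97) and Shisa2 (0.96), and for Smyd2 Fbrsl1 (0.98), Tcaim (0.97) and Amer1 (0.96). Those most like Unc45b were Gpbp1 (0.98), Prrg2 (0.97) and Fam161b (0.97).

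The RefSeq table of promoters (GRCm38.p6) held all 6 genes, with 7 start sites. These differ in part from GENCODE M21, in which the window of Smyd1 lies directly before the first exon of a coding transcript and in an intron of a longer transcript, and the windows of Smyd2 and of 1 Btf3 start reach into a first exon, while those of Naca and Btf3l4 end short of the GENCODE start. In the 250 bases before the start, CpG pairs numbered 34 for Smyd2, 26 and 28 for the starts of Btf3, 11 for Naca, 6 for Btf3l4, 4 for Unc45b and 2 for Smyd1, and the median over 32851 promoters was 6. Smyd1 was the only one of the 6 with a TATAAA on either strand, which 12.4% of all these promoters hold. It is shown for that reason, at chr6:71262282-71262531 on the minus strand, with the match, read here from the other strand and starting 28 bases before the start site, in capitals.

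Smyd1 promoter: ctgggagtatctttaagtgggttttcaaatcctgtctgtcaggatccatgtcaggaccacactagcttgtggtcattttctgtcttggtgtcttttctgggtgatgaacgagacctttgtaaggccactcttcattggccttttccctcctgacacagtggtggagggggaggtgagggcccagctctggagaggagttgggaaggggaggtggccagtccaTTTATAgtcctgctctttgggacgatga

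Unc45b held 2 matches to the E-box CANNTG, the general site of MyoD-type factors, at 108 and 43 bases before its RefSeq start, a window that GENCODE M21 places inside the first exon of a longer transcript. Naca held 1 and the others held 0, while 66.2% of all promoters hold at least 1. A CArG box and a MEF2 motif, searched on both strands, were in none of the 7 windows and in 1.47% and 2.92% of all promoters. These are matches of letters in a short window and say nothing about binding.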

How the data were processed

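RNA-seq libraries of 8 mice of 1 group were used, 1 per mouse. The authors' deposited signal values are read counts per Ensembl gene divided by a size factor per library, and all other columns were left out. The submitters' processing notes name fastp, FastQC, STAR and GRCm38.p6, and the study's methods name summarizeOverlaps for counting. The treatment of multi-mapped reads is not given in the sources used here. Whole reads were recovered for 100% of values (tolerance 0.01 read). Levels were compared on log2(value + 1). Genes with at least 10 reads in every library (15135) entered correlations. TPM used exon lengths of GENCODE M21, which held 55227 of 55487 identifiers. Near-identical genes were transcripts with at least 95% identity over at least 100 bases (blastn 2.17.0).

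Relations between mice were tested with a two-sided exact permutation test over all pairings and adjusted by Benjamini-Hochberg, over 15 pairs and 72 relations. Partner genes came from lists and the genes most alike were the extremes of r (5 highest and 3 lowest for Naca, 3 highest for the others), of which 1 is not reported here. The members and lists were chosen with earlier results of these data known. With no second condition, no differential test was run. Alternatives were edgeR 4.0.16 TMM factors, library totals, DESeq2 1.42.0 size factors, a pseudocount of 5, removal of a GC and length trend, Spearman's rho, no minimum count, other lengths, leaving out each mouse and, added after seeing the data, near-identical genes summed with the members. The alternatives for the number of thick filament genes with r of at least 0.8 with Smyd1 were also added after seeing the data. In simulated data for 15135 genes, 31 of 50 planted relations with a log2 SD of 0.2 passed 0.8, and 50 of 50 with an SD of 0.5. Of the genes with no planted relation 0.83% passed. The noise was independent between genes and the planted pattern had none, unlike the measured members, so these numbers do not carry over to them. Smaller spreads, such as that of Unc45b, were not simulated. Counting error was small beside the spread between mice, and it covers read counting only. R 4.3.3 and Python 3.11.15 were used.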

Additional observations from a re-analysis of the deposited data

Results flagged for a closer look

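Among 22 values screened for a mouse far from the other 7, of which chance gives about 1.1, 2 stood out. The highest Naca value, 41554 normalized counts in mouse 5, had a gap to the next mouse of 0.612 of the whole range. The gap was 0.814 with the GC and length trend removed and 0.323 with library totals, where it no longer passed the 95% critical value, and mouse 5 was the highest in each. The summed Schwann cell markers were highest in mouse 7, at 5489.5, with a gap of 0.704 of the range and a median of 3086.3.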

How the results depend on the processing

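No paired analysis was possible because all 8 mice belong to a single group. Depth did not limit the 6 genes, whereas 8 mice, the scaling and the unknown Naca form did. TPM with the longest, shortest coding and median coding transcript moved to 233, 186 and 308 for Btf3, 17.1, 49.1 and 65.9 for Btf3l4, 95.4, 491 and 231 for Smyd1, 247, 144 and 271 for Smyd2 and 74.9, 50.2 and 94.5 for Unc45b, and Naca to 261, 1130 and 496. With the longest and the shortest coding transcript the log2 ratio of Naca to the beta subunits was 0.06 and 2.27, of Btf3 to Btf3l4 3.76 and 1.91 (3.13 with near-identical genes added) and of Unc45b to Smyd1 -0.35 and -3.28, and that of Smyd1 to Smyd2 turned to 1.77 with the shortest. With near-identical genes added the log2 ratio of Naca to the beta subunits was 0.41, against 0.71 without them. Leaving out each mouse gave -0.087 to 0.036 for Unc45b to Smyd1.

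With library totals 1 pair passed, and r turned to 0.24 for Naca and Btf3, 0.27 for Naca and Btf3l4, 0.32 for Naca and Unc45b, 0.21 for Btf3 and Smyd2, 0.72 for Btf3 and Unc45b, 0.75 for Btf3l4 and Unc45b, -0.15 for Smyd1 and Smyd2, -0.78 for Smyd1 and Unc45b and -0.20 for Smyd2 and Unc45b. Removing the GC and length trend gave 0.086 for Naca and Btf3l4, and Spearman's rho gave -0.12 for Naca and Smyd2 and 0.14 for Btf3l4 and Unc45b. Over the mice left out, r ran from -0.74 to 0.18 for Naca and Btf3l4, -0.85 (without mouse 5) to 0.70 for Naca and Smyd2, -0.36 to 0.10 for Btf3 and Smyd2, -0.67 to 0.14 for Btf3l4 and Smyd1 and -0.25 to 0.065 for Btf3l4 and Unc45b, and 0 pairs passed.

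The number of the 72 relations that passed was 2 with TMM factors, 3 with the trend removed, 0 with library totals or Spearman's rho and 0 to 3 over the mice left out (3 without mouse 3 and 0 without any other). Genes with r of at least 0.8 with Naca numbered 477, against 1124 with library totals, 276 with the trend removed, 1075 with no minimum count and 418 to 1228 over the mice left out (1228 without mouse 5, 733 without mouse 2). At or below -0.8 there were 384, against 220 with library totals and 428 to 753 over the mice left out (753 without mouse 5, 602 without mouse 1). Over the mice left out, genes at or above 0.8 and at or below -0.8 ran from 448 to 681 and 250 to 775 for Btf3l4, 328 to 756 and 318 to 802 for Smyd1, 204 to 800 and 250 to 854 for Smyd2, 204 to 469 and 189 to 615 for Unc45b and 628 to 1100 and 457 to 884 for Btf3. Partner genes beyond 0.8 or -0.8 with Naca numbered 2 with library totals, 2 with Spearman's rho and 0 to 2 over the mice left out. Thick filament genes with r of at least 0.8 with Smyd1 numbered 2 with library totals, 3 with Spearman's rho and 4 to 6 over the mice left out. The causes were not tested.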
